A study of Mus musculus with 4 samples.

Results

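Vein ECs were cells of the mouse left ventricle that carried endothelial transcripts together with transcripts of the vein genes Selp, Vwf, Prss23 and Slco2a1. A cell was counted as an EC when the UMIs of Pecam1, Cdh5, Kdr, Tie1, Egfl7 and Cldn5 summed to at least 3 and it held at most 1 UMI of the mural genes Kcnj8, Abcc9, Vtn and Pdgfrb. Such a cell was a vein EC when the 4 vein genes summed to at least 4 UMIs and no UMI was found of the artery genes Gja4, Gja5, Hey1 and Sema3g or of Npr3, Prox1 and Mmrn1, which mark endocardial and lymphatic cells. A UMI is a barcode that marks 1 captured transcript molecule. By this rule 504 of 35516 ECs (1.42%) were vein ECs, with 130 in NC library 1, 123 in NC library 2, 34 in HFpEF library 1 and 217 in HFpEF library 2. The 39829 cells from which they were chosen had more than 200 genes, less than 20% mitochondrial and less than 1% hemoglobin UMIs, and 41843 cells were deposited.

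Cells of the left ventricle with red fluorescence (RFP) were isolated by FACS and read with the Chromium 3′ assay of 10x Genomics, in order to characterize the ECs of hearts with heart failure with preserved ejection fraction (HFpEF). The 2 NC libraries, labelled Chow diet, came from mice fed 10% of energy as fat with normal water. The 2 HFpEF libraries, labelled HFD plus L-NAME, came from mice fed 60% of energy as fat and given 0.5 mg/mL L-NAME, an inhibitor of nitric oxide synthases, in the water. The floxed Scarb1 (SR-B1) allele, present as Sfl/fl or Sfl/+, was made on the C57BL/6N background. All mice also carried the tamoxifen-inducible Cdh5-CreER transgene, which the endothelial Cdh5 promoter drives, and the R26-stop-tdTomato reporter, whose red fluorescence the sort used. Tamoxifen was given at 7 weeks of age. In its single-cell data the paper compared both Scarb1 genotypes, Sfl/fl and Sfl/+, on each diet, but the labels name no genotype for a library. Diet and genotype together make as many groups as there are libraries. The 2 libraries of a diet therefore probably differ in genotype and are not replicates. The labels also give no number of mice. The p-values below measure the spread between libraries, which then includes genotype. The deposited cells numbered 7465 and 6924 with 30387717 and 31517933 UMIs in NC, and 5769 and 21685 with 11163876 and 48003732 UMIs in HFpEF.

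Coronary venules and veins collect blood from the capillaries, and venules are the segment where leukocytes usually leave the blood. Their ECs store P-selectin (Selp) and von Willebrand factor (Vwf) in Weibel-Palade bodies, from which both reach the surface or the plasma within minutes of stimulation. P-selectin and E-selectin (Sele) let leukocytes roll, VCAM-1 and ICAM-1 hold them by their integrins, and chemokines such as CXCL10 and CXCL1 direct them across the wall.

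The promoters of 4 genes are shown, Selp and Sele for rolling, Cxcl10 for T cell attraction and Il6 for cytokine release. Of these, Sele was not called between diets. The 4 are shown because they differ in exact matches to a short NF-kB-like motif. Each run holds the 160 bases before the annotated start, 5′ to 3′ on the gene's strand, from RefSeq on GRCm38.p6. Selp lies on the plus strand at chr1:164115104-164115263, Sele on the plus strand at chr1:164048074-164048233, Cxcl10 on the minus strand at chr5:92348890-92349049 and Il6 on the plus strand at chr5:30012954-30013113. Capitals mark a match of either strand to GGANTTNCC.
Selp: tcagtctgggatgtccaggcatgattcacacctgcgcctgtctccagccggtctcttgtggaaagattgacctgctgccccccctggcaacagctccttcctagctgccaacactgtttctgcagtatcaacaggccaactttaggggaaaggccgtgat
Sele: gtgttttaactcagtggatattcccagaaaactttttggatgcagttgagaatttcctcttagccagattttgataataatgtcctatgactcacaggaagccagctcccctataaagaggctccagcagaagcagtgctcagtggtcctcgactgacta
Cxcl10: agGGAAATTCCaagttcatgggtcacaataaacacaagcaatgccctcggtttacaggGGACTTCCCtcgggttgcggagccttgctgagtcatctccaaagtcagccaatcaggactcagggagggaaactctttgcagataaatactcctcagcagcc
Il6: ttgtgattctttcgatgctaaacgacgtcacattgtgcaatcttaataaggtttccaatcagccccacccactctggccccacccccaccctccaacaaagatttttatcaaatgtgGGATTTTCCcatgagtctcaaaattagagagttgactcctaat

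The motif stood at 158 and 102 bases before the start of Cxcl10 and at 43 bases before the start of Il6. Selp and Sele held none in the 250 bases before the start that were searched. Among 32851 promoters of that length, 1035 (3.15%) held it. A match is a run of letters and was not shown here to bind a factor. The pattern is narrow, so a missing match does not show that an NF-kB site is absent. The Sele run holds ggatattcc, which nearly matches it.

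Vein ECs held more UMIs per cell than other ECs in every library, which a threshold on UMIs favours. Their median was 4784.5 and 5444 UMIs per cell in NC and 2606 and 3152 in HFpEF, against 3776, 4091.5, 1793.5 and 1734.5 in the other ECs of the same libraries. Depth per cell therefore moved with diet. The summed UMIs of vein ECs were 685470, 740684, 101973 and 840220 in NC 1, NC 2, HFpEF 1 and HFpEF 2, the order used for all values below. Levels are given as CPM, a gene's UMIs scaled to a common total of these sums, which compare a gene between groups of cells. One UMI was worth 1.46, 1.35, 9.81 and 1.19 CPM, so HFpEF 1 is the coarsest library by far. Only 166 of 41676 barcode sequences occurred in more than 1 library. Among the cells with the highest doublet scores were 2.31, 2.44, 0 and 9.68% of the vein ECs, against 6.02, 5.47, 4.54 and 17.3% of other ECs.

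Of 843 cells that met the thresholds on summed endothelial and vein UMIs, 240 held artery UMIs, 175 endocardial or lymphatic UMIs and 32 more than 1 mural UMI, some of them more than 1 of these kinds, and 504 were left. The vein ECs themselves were mixed in the genes that chose them. A UMI of Vwf was found in 92.7% of them, of Prss23, a serine protease, in 63.3%, of Slco2a1, a prostaglandin transporter, in 52.0% and of Selp in 40.5%. All 4 genes were found together in 61 cells, 3 in 186, 2 in 193 and 1 in 64, of which 48 had Vwf alone. At the threshold, 22, 15, 8 and 39 cells held exactly 4 UMIs of the vein genes, and 31, 22, 16 and 65 cells outside it held 3.

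The share of vein ECs among ECs was 1.96% (95% Clopper-Pearson interval 1.64 to 2.33) in NC 1, 2.01% (1.67 to 2.39) in NC 2, 0.713% (0.495 to 0.995) in HFpEF 1 and 1.21% (1.05 to 1.38) in HFpEF 2. Both HFpEF libraries lay below both NC libraries, and the mean difference, HFpEF minus NC, was -1.03 percentage points. The intervals cover counting error only, and 2 libraries against 2 allow no exact permutation p below 0.33. Leaving out the ECs under 1500 UMIs, an alternative added after the data were seen, removed 7.77 and 6.57% of ECs in NC and 34.7 and 41.4% in HFpEF, and the shares at full depth were then 2.08, 2.12, 1.06 and 1.84% (mean difference -0.648). When the same cells were also thinned to 1500 UMIs and the rule was applied again, the shares were 0.913% (0.687 to 1.19), 0.780% (0.567 to 1.05), 0.631% (0.380 to 0.983) and 0.744% (0.588 to 0.929). The libraries kept their sides, but the difference was -0.159 percentage points and every interval overlapped the others. Thinning changed the cells counted as well as their depth, so the size of a difference in share between the diets at equal depth over all ECs was not measured.

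**Figure D1:**
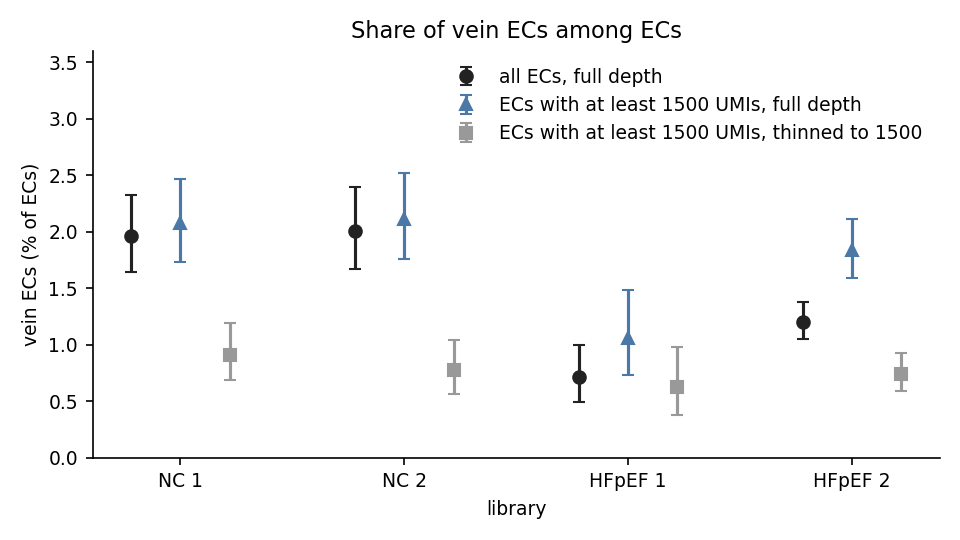
Percentage of ECs that met the vein rule in each of the 4 libraries, with 95% Clopper-Pearson intervals, over all ECs at full depth, over ECs with at least 1500 UMIs at full depth, and over such ECs thinned to 1500 UMIs. The NC and HFpEF points are furthest apart over all ECs (1.96 and 2.01 against 0.713 and 1.21%) and nearest after thinning.

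Among the genes that chose the cells, Vwf had 1328, 1218, 1216 and 1347 CPM in vein ECs against a mean of 37.8 CPM in the other ECs. Its level hardly varied between libraries. Selp had 271, 143, 1157 and 791 CPM against 3.86 CPM, and was the vein gene that varied most. Prss23 had 308, 409, 333 and 350 CPM against 11.8, and Slco2a1 241, 142, 353 and 361 CPM against 11.1. Being part of the rule, these contrasts describe the selection and were not tested.

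Markers that the rule did not use put the label beside these cells. Vein ECs were chosen within the same cells that are compared, so the contrasts with other ECs are described with no test. Among 6318 genes with at least 20 CPM on one side, 1350 (21.4%) were higher and 1221 (19.3%) lower in vein ECs in 4 of 4 libraries, and 191 (3.02%) were at least 2-fold higher and 74 (1.17%) at least 2-fold lower in all 4. Of 20 vein markers outside the rule, 19 were measured. All 19 were higher in 4 of 4 libraries and 14 of them at least 2-fold, with a median log2 ratio of 1.73 against 0.00 over all measured genes.

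Nr2f2 (COUP-TFII), the transcription factor that specifies venous identity, had 245, 269, 333 and 298 CPM in vein ECs and 32.3, 33.9, 36.4 and 34.6 CPM in other ECs. Its ratio varied little between libraries, at 2.88 ± 0.13 on the log2 scale (mean ratio ± SD over libraries, n = 4). In cells of at least 1500 UMIs, thinned to 1500, 29.1, 35.5, 48.5 and 35.6% of vein ECs held an Nr2f2 UMI, against 3.74, 4.22, 4.87 and 4.51% of other ECs. Without thinning they were between 53.5 and 66.7% in the vein ECs. In 31 thinned cells with B cell markers, which should lack the gene, it was found in 0, which allows up to 9.68%. In NC 1, NC 2 and HFpEF 1, thinned cells with Npr3 held Nr2f2 more often than other ECs, in 14.8, 23.4 and 23.5% of them. A value for HFpEF 2 is not given here. Plvap, which forms the diaphragms of venular fenestrae and caveolae, had 133, 140, 147 and 143 CPM in vein ECs and a mean of 13.7 CPM in other ECs, but it was higher still in cells with Npr3 (949, 748, 627 and 541 CPM). Ephb4, the venous ephrin receptor, differed less, with a log2 ratio of 0.65 ± 0.32, and Emcn (0.35 ± 0.12) and Aplnr (0.17 ± 0.16) less still. Ackr1, a chemokine receptor of venules, was under the measured range at 7.29, 4.05, 0 and 59.5 CPM.

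Genes were ranked by the ratio of vein ECs to other ECs with 5 CPM added to each side. Beyond the genes of the rule, Lrg1, a secreted glycoprotein that modulates TGF-beta signalling, came first by this ratio. It had 521, 173, 245 and 542 CPM against 15.2, 6.41, 10.1 and 12.6 CPM in other ECs (log2 ratio 4.42 ± 0.49). Sele followed with 117, 51.3, 177 and 263 CPM against 1.53, 0.576, 2.39 and 5.98 CPM (4.20 ± 0.60). Vcam1 had 664, 624, 1363 and 808 CPM against a mean of 52.9 CPM (3.84 ± 0.59). Sele and Vcam1, an adhesion receptor each, were thus among the 5 genes with the highest ratio at 5 CPM added. The order depends on the amount added. In mean CPM with nothing added, Lrg1 had 370 against 11.1, Sele 152 against 2.62 and Il33 76.6 against 1.53.

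Igfbp5, a binding protein of insulin-like growth factors, had 813, 821, 1265 and 1128 CPM (4.11 ± 0.26), and Igf1 itself had 81.7, 83.7, 137 and 165 CPM (3.41 ± 0.34). Lbp, which carries lipopolysaccharide to its receptor, had a log2 ratio of 4.09 ± 0.38. The remaining genes among the 15 highest were Cpe, Il33, Col13a1, Fam174b, Serpina1b, Bgn, Emp3, Rasa4 and Pdia5, with log2 ratios from 3.07 to 3.75. Il33, an alarmin kept in the nucleus of venous ECs, had 42.3, 62.1, 118 and 84.5 CPM against 1.53 CPM, and Bgn, the proteoglycan biglycan, 303, 323, 539 and 368 CPM against 37.7 CPM.

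**Figure D2:**
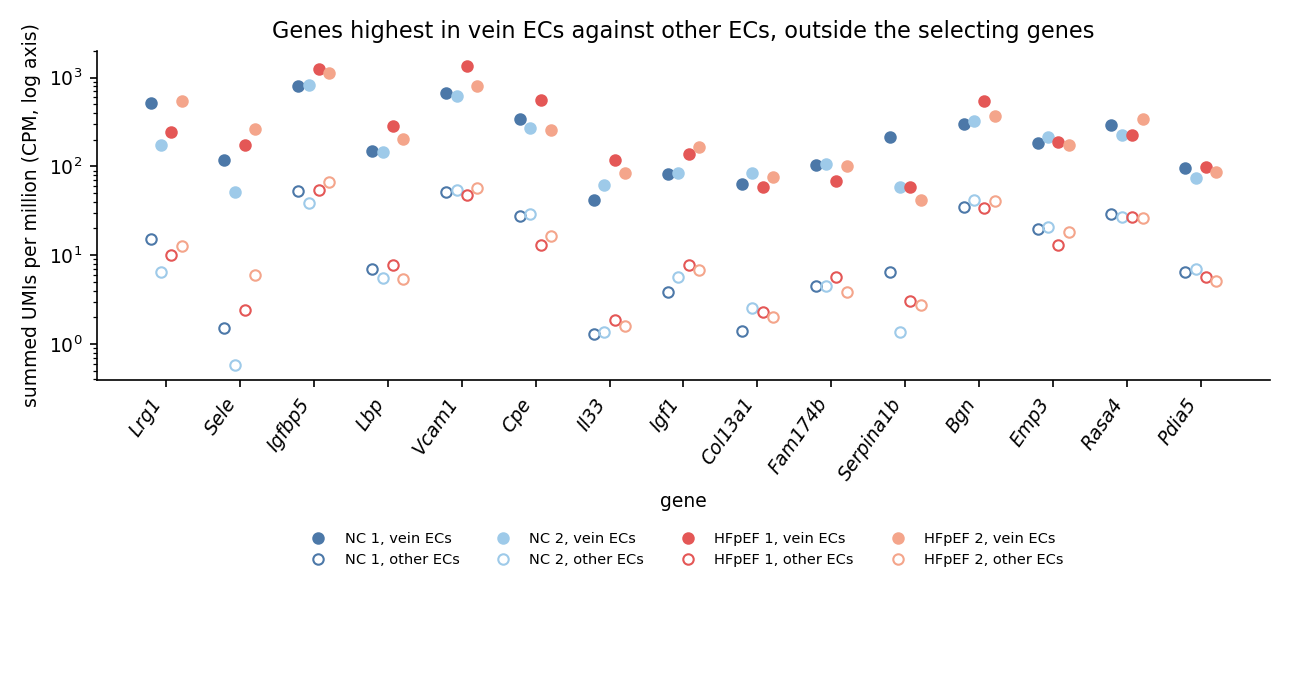
Levels of 15 genes on a log axis in CPM, with a filled point for the vein ECs and an open point for the other ECs of each library. For Lrg1, Sele and Vcam1 the 4 filled points lie above the 4 open points without overlap.

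Among the 10 lowest genes, Btnl9, a capillary gene, had 42.3, 67.5, 58.8 and 78.6 CPM in vein ECs against a mean of 582 CPM in other ECs. Car4, the capillary carbonic anhydrase, had 58.4, 67.5, 19.6 and 52.4 CPM against 375 CPM, and the netrin receptor Unc5b, of arteries and tip cells, 13.1, 20.3, 0 and 17.9 CPM against 92.1 CPM. The others were Alpl, Gm12002, St8sia6, Kctd12b and Pth1r, between -3.11 and -2.58 on the log2 scale, and 2 genes of other cell types, the lymphatic chemokine Ccl21a (-4.27 for ENSMUSG00000094686, which has near-identical copies that counting can split) and the mural gene Rgs5 (-3.06). Of 17 capillary markers, 15 were lower and 1, Aqp1, higher in 4 of 4 libraries, with a median of -0.98. Of 15 artery markers measured outside the rule, 9 were lower and 3 higher, with Eln, which encodes elastin, at 258, 186, 118 and 256 CPM against 25.0 CPM.

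Vein ECs were not cleanly apart from endocardial cells. All 4 endocardial markers measured outside the rule were higher than in other ECs in 4 of 4 libraries (median 1.38), among them Cytl1 at 123, 117, 78.5 and 100 CPM against 21.5 CPM. Cells with at least 2 Npr3 UMIs, which numbered 54, 65, 21 and 66, held 825, 801, 842 and 521 CPM of Cytl1 and, like vein ECs, Vwf at 1904, 1797, 556 and 1394 CPM. Against these Npr3 cells, a comparison added after the data were seen, Vcam1 (-0.26), Cpe (-1.37) and Bgn (-1.01) were lower in vein ECs in the mean, whereas Selp had a mean of 591 CPM in vein ECs and 78.7 CPM in Npr3 cells. Whether endocardial cells without an Npr3 UMI are among the vein ECs was not tested.

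Transcripts of other cell types were low. The 12 immune markers summed to 17.5, 10.8, 19.6 and 11.9 CPM, with Cd68 highest at a mean of 12.2 CPM and Ptprc, Cd3e, Cd3d, Cd79b, Ms4a1, Csf1r, S100a8 and S100a9 at 0. The 8 mural markers outside the rule summed to 56.9, 47.3, 49.0 and 54.7 CPM, with Rgs5 highest at 30.0 CPM and Myh11 and Cspg4 at 0. The 9 fibroblast markers summed to 8.75, 93.2, 9.81 and 125 CPM, with Dcn highest at 47.9 CPM and Col1a1 and Tcf21 at 0. None of these sums separated the diets. Cardiomyocyte markers summed to 35.0, 28.4, 98.1 and 40.5 CPM, with Ryr2 at 0 and Myl2 highest at 26.6 CPM, and were higher in both HFpEF libraries, and their part in the diet results was not tested.

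Grouped by function, the MHC class II list had the median furthest from the 0.00 of all genes. All 6 MHC class II genes measured were higher in vein ECs in 4 of 4 libraries (median log2 ratio 2.36), among them Cd74, the invariant chain, at 309, 128, 883 and 439 CPM against a mean of 63.8 CPM. The 16 genes of MHC class I and antigen processing, in contrast, had 2 higher and 4 lower (median -0.10). Among 9 chemokines and scavengers, 6 were higher and 1 lower (median 1.25). The chemokine in the lower direction was Cxcl12, the CXCR4 ligand made by capillaries, at 553, 549, 265 and 812 CPM against 1715 CPM. Cytokines had a median of 0.87 over 8 genes, with Il6 at 109, 66.2, 343 and 219 CPM against 7.18, 9.40, 14.6 and 44.8 CPM.

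Of 13 cytokine and mediator receptors, 7 were higher and 3 lower in 4 of 4 libraries (median 0.36), with Il6st (gp130, the shared IL-6 receptor chain) at a log2 ratio of 1.73 ± 0.35 to other ECs, though lower than in Npr3 cells in 4 of 4 libraries (-0.80 ± 0.28), and Il1r1 at 1.53 ± 0.31. Of 15 coagulation and fibrinolysis genes, 11 were higher and 1 lower (median 0.51), with the anticoagulant genes Thbd (thrombomodulin) at 710, 425, 598 and 632 CPM against 292 CPM and Entpd1, which breaks down ATP and ADP, at 177, 186, 294 and 201 CPM against 39.5 CPM. In the Weibel-Palade list (11 genes, median 0.53), Myrip and Rab27a, which tether the granules to actin, had log2 ratios of 2.66 and 1.87. Vasomotor genes split, with Calcrl, the receptor of CGRP and adrenomedullin, at 2.20 ± 0.36, Ace at 1.82 ± 0.58 and the endothelin receptor Ednrb at -1.73 ± 0.59. Fatty acid uptake genes were lower, 10 of 14 in 4 of 4 libraries (median -0.60), among them Gpihbp1, which holds lipoprotein lipase on the capillary wall, at 1656, 1472, 637 and 809 CPM against 2177 CPM.

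**Figure D3:**
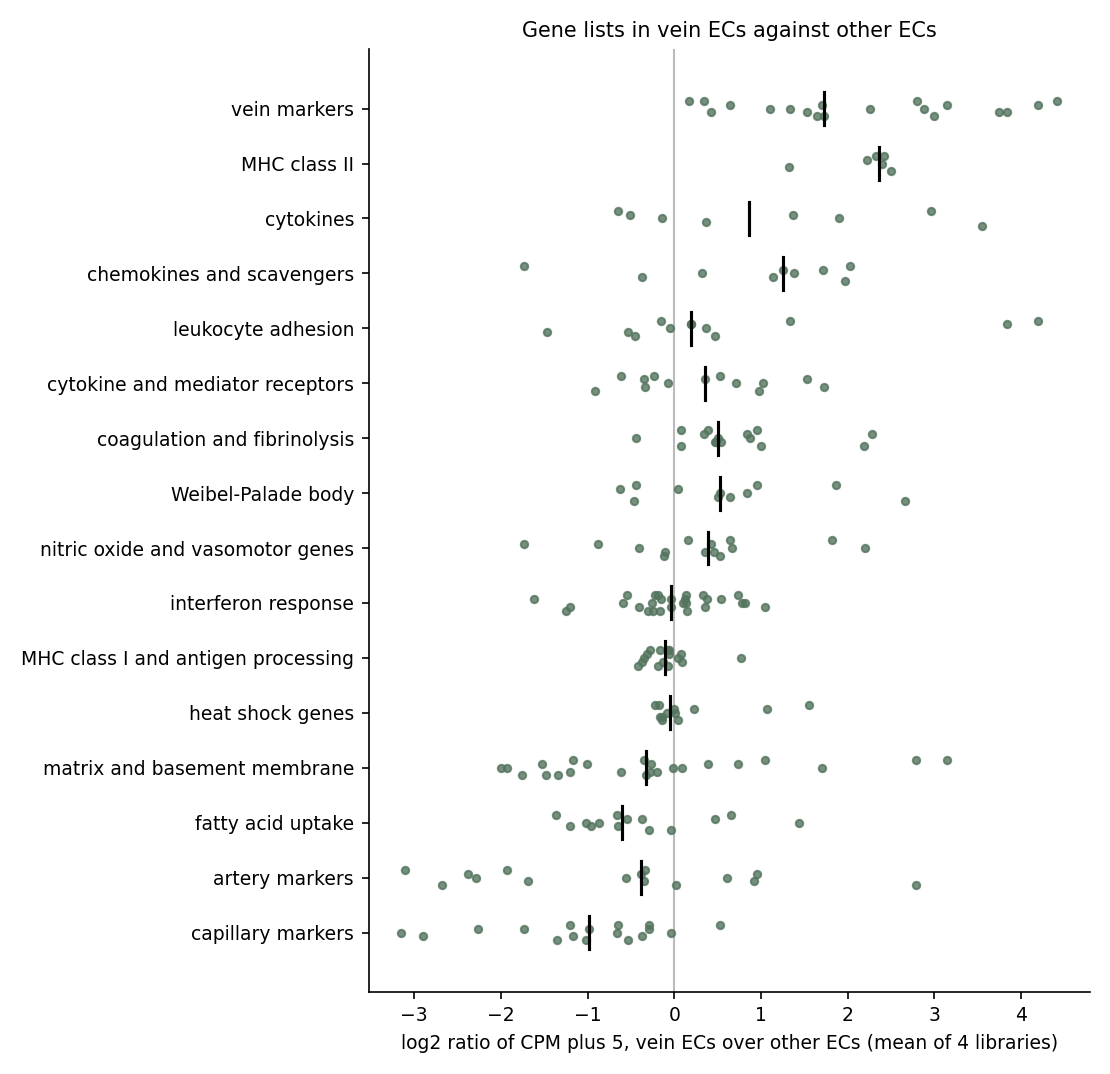
Mean log2 ratio of vein ECs to other ECs for each measured gene of the functional lists, 1 point per gene, with a line at each list's median. MHC class II genes (median 2.36) and vein markers outside the rule (1.73) lie highest, and capillary markers (-0.98) lowest among the lists plotted.

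Vein ECs with a Selp UMI, 38, 33, 21 and 112 cells, were set beside those without one, 92, 90, 13 and 105 cells. Selp is a gene of the rule and the genes shown were chosen after their values were seen, so this describes the selection. Vcam1 had 1266, 1253, 1549 and 1063 CPM in the cells with Selp and 389, 408, 961 and 555 CPM in those without. Sele had 224, 153, 215 and 418 CPM against 68.0, 16.3, 93.0 and 109 CPM, and Il6 289, 233, 459 and 322 CPM against 27.6, 9.07, 93.0 and 116 CPM. These 3 genes were higher beside Selp in every library, and without overlap. Icam1 overlapped, at 2207, 1480, 1492 and 2094 CPM with and 1755, 943, 1489 and 1338 CPM without Selp. Nr2f2 did not follow this split, at 237, 259, 330 and 301 CPM with and 249, 272, 341 and 294 CPM without Selp. Cells with Vwf alone (16, 13, 1 and 18 cells) had pooled levels of 406 CPM of Vcam1 and 292 CPM of Nr2f2.

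HFpEF was compared with NC within vein ECs, since the rule does not use the diet. In this comparison Cxcl10, Il6, Tiparp, Hif1a and Hspd1 were higher and Timp4, Gpihbp1 and Ptp4a3 lower in HFpEF. At full depth Ptgs2 had UMIs in the vein ECs of HFpEF alone. Selp was also higher, in cells chosen without it by a rule added after the data were seen. Of 7262 genes outside the rule, 9 (0.124%) passed edgeR's quasi-likelihood test at a Benjamini-Hochberg adjusted p of 0.05, 6 higher, Ptgs2 among them, and 3 lower. At an unadjusted p under 0.05, 380 (5.23%) were higher and 298 (4.1%) lower, and the 2 libraries of each diet did not overlap for 1391 genes higher (19.2%) and 1504 lower (20.7%). The median log2 fold change of all genes was -0.01. On GRCm38 the called genes are Tiparp (chr3:65528410-65555518), Cxcl10 (chr5:92346638-92348889), Ptgs2 (chr1:150100031-150108227), Il6 (chr5:30013114-30019981), Hspd1 (chr1:55077835-55088243), Hif1a (chr12:73901375-73947530), Timp4 (chr6:115241892-115252205), Gpihbp1 (chr15:75596628-75599481) and Ptp4a3 (chr15:73723145-73758766), each counted at its 3′ end.

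Selp lies on chromosome 1 at 164115264 to 164150026 (GRCm38), and as a gene of the rule its counts are truncated by the threshold. It was therefore tested in vein ECs chosen by at least 3 UMIs of Vwf, Prss23 and Slco2a1, a choice added after the data were seen. In these 156, 144, 41 and 247 cells Selp had 171, 106, 112 and 547 UMIs, or 208, 121, 945 and 574 CPM. Each HFpEF library exceeded each NC library. The rise was 4.40-fold (log2 fold change 2.14 ± 0.27 (SE), adjusted p = 0.00171, edgeR's quasi-likelihood test). At 1500 UMIs per cell, 13.2, 8.45, 23.7 and 28.4% of these cells held a Selp UMI, in the same order of diets. In other ECs, which the rule leaves with few vein UMIs, 0.267, 0.0715, 0.260 and 0.454% of thinned cells held one. For Vwf, the other granule cargo, the values above overlapped between diets, though the threshold shaped them.

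Cxcl10, the chemokine that attracts CXCR3-bearing T cells, had 219, 302, 1324 and 627 CPM in vein ECs, higher in both HFpEF libraries (log2 fold change 1.80 ± 0.28, adjusted p = 0.0117, edgeR). Its UMIs lay in 25, 26, 11 and 55 cells, and 1 cell held 26.0, 16.1, 30.4 and 23.5% of them. Il6, a cytokine of acute inflammation, had 109, 66.2, 343 and 219 CPM (1.53 ± 0.27, adjusted p = 0.0275). It was found in 18, 12, 7 and 57 cells. Without NC 2 the adjusted p of Il6 was 0.0677. In other ECs the log2 fold change was 0.95 for Cxcl10 and 1.90 for Il6, and neither was called there.

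Tiparp, a mono-ADP-ribosyltransferase induced by the aryl hydrocarbon receptor, had the lowest adjusted p of the genes outside the rule. Its levels were 87.5, 95.9, 265 and 258 CPM, and the pair of libraries within each diet differed little (1.49 ± 0.22, adjusted p = 0.0074, edgeR). Hif1a, the oxygen-regulated subunit of hypoxia-inducible factor, had 71.5, 97.2, 216 and 201 CPM (1.26 ± 0.24, adjusted p = 0.0336). Hif1a lost its call without NC 1 (log2 fold change 1.06) and without HFpEF 2 (1.35). In other ECs the log2 fold changes were 0.46 for Tiparp and 0.44 for Hif1a. Hspd1, a mitochondrial chaperone, had 70.0, 75.6, 118 and 209 CPM (1.35 ± 0.25, adjusted p = 0.0336). Without HFpEF 2 its log2 fold change was 0.69 (adjusted p = 0.714, edgeR), and without Slco2a1 in the rule its adjusted p was 0.0960.

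Ptgs2 (COX-2), the inducible enzyme of prostaglandin synthesis, had 0, 0, 36 and 37 UMIs in vein ECs, or 0, 0, 353 and 44.0 CPM. At full depth no NC vein EC held a UMI. The summed HFpEF level was 36.8-fold the level of 3 UMIs over the NC group. That ratio treats UMIs as independent, though they lay in 10 cells, so it is no lower bound on the difference. The gene passed the count filter only through HFpEF, so its place among the called genes (adjusted p = 0.0244, edgeR) adds no support. It was carried by 2 and 8 cells, and 1 cell held 35 of the 36 UMIs of HFpEF 1 (97.2%). Without that cell the ratio was 19.2-fold. Other cells of NC did carry the gene, with 572, 391, 323 and 326 CPM in the Npr3 cells and 10.1, 6.41, 3.75 and 3.83 CPM in other ECs. Il6 and Ptgs2 thus each rested on few cells of HFpEF 1.

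Timp4, a metalloproteinase inhibitor of capillaries, had 591, 590, 216 and 242 CPM (log2 fold change -1.34 ± 0.20, adjusted p = 0.0101, edgeR). The log2 fold change in other ECs was -1.17, which was not called. Gpihbp1 had 1656, 1472, 637 and 809 CPM (-1.08 ± 0.19, adjusted p = 0.0244), against -0.41 in other ECs. Ptp4a3, a phosphatase of growing vessels, had 182, 190, 49.0 and 80.9 CPM (-1.32 ± 0.25, adjusted p = 0.0336). Ptp4a3 lost its call without HFpEF 2 (-1.92, adjusted p = 0.0596, edgeR), without doublets (-1.23, 0.0524) and without Slco2a1 in the rule (-1.005, 0.0998). For these 3 genes both HFpEF libraries lay below both NC libraries. In the other ECs, 1 of 13203 genes was called, Cyp1a1, a target of the aryl hydrocarbon receptor.

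**Figure D4:**
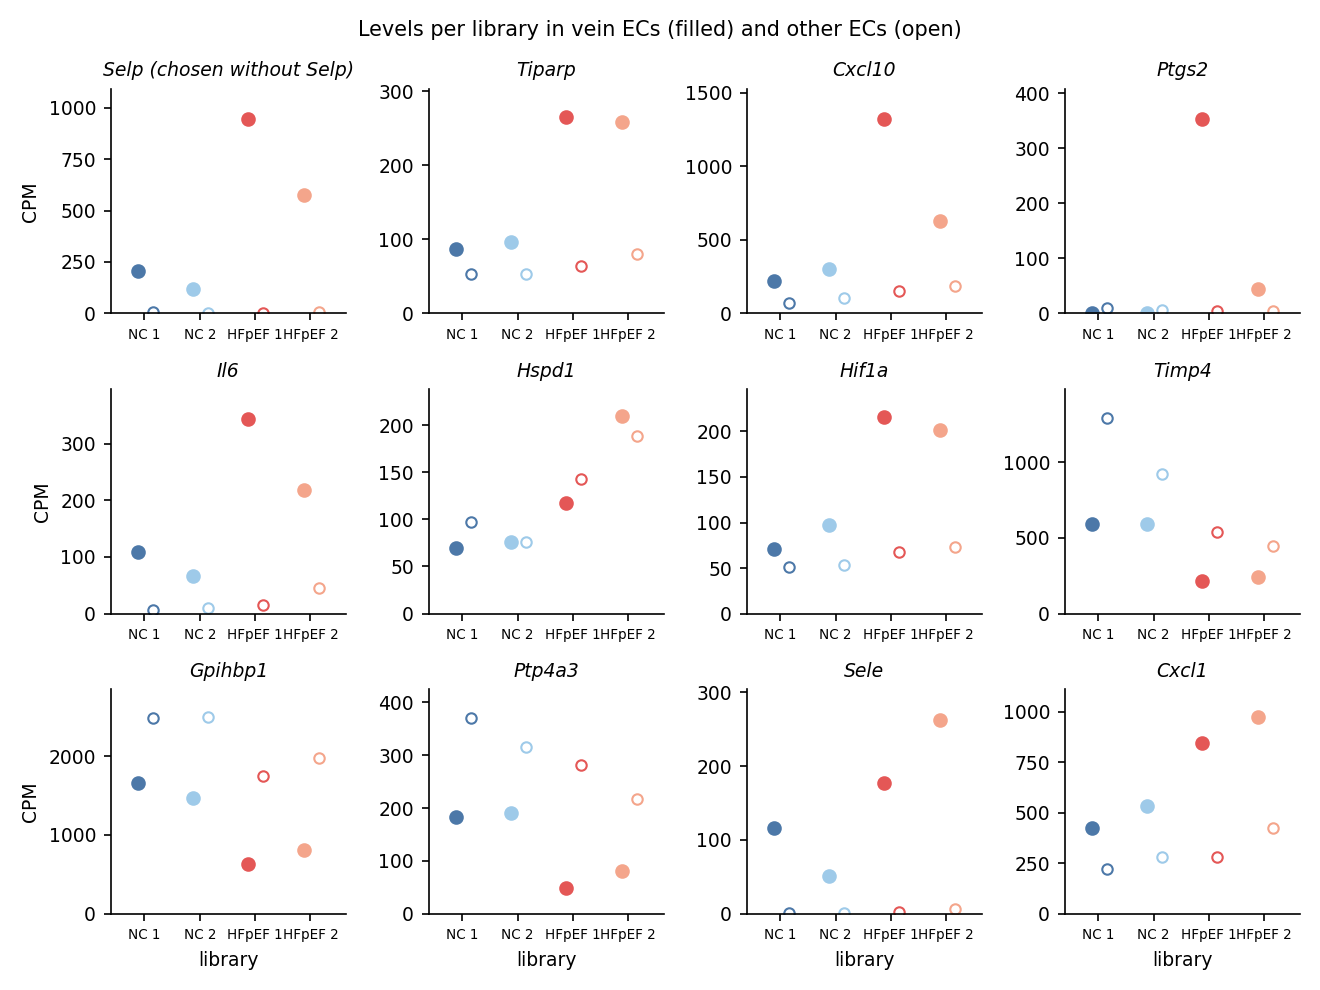
Levels in CPM of 12 genes in the vein ECs of each library, with Selp shown in cells chosen without Selp; Sele and Cxcl1 were not called. Ptgs2 is at 0 in both NC libraries, and the NC and HFpEF points do not overlap in any of the 12 panels.

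A Selp UMI was found in 29.2, 26.8, 61.8 and 51.6% of the vein ECs, so the detection of Selp itself moved with diet, and the levels of the called genes are also given for vein ECs without one, where HFpEF 1 rests on 13 cells. Among these, Tiparp had 80.7, 59.8, 341 and 185 CPM, Cxcl10 115, 223, 1954 and 418 CPM and Il6 27.6, 9.07, 93.0 and 116 CPM. Hif1a had 59.5, 85.2, 186 and 149 CPM and Hspd1 57.4, 65.3, 124 and 214 CPM. The HFpEF libraries were the higher ones for these 5 genes, whereas Ptgs2 had 0, 0, 0 and 2 UMIs there, so that 71 of its 73 UMIs lay in cells with Selp. Timp4 had 765, 684, 403 and 356 CPM, Gpihbp1 1708, 1579, 434 and 949 CPM and Ptp4a3 191, 196, 31.0 and 114 CPM, with the HFpEF libraries the lower ones. The part of the Selp share in the diet results was not tested. Depth per cell also moved with diet. With cells under 1500 UMIs left out and the rest thinned to 1500 before the rule, 1317 genes could be tested, and Timp4 kept its call with a larger log2 fold change (-2.53, adjusted p = 0.00896, edgeR) whereas Tiparp (1.45, adjusted p = 0.514), Cxcl10 (0.87, 0.459), Il6 (0.93, 0.561), Hif1a (1.34, 0.417), Gpihbp1 (-1.06, 0.0613) and Ptgs2 (0.74, 0.940) kept their direction and not their call. Hspd1 and Ptp4a3 were not among the genes tested then. The small value of Ptgs2 means that some NC cells that met the rule after thinning held it. Its 0 in NC thus belongs to the rule at full depth.

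Of the genes filled in next by their unadjusted p, Sele had 117, 51.3, 177 and 263 CPM (log2 fold change 1.51, adjusted p = 0.0514, edgeR). Adamts4, an aggrecanase, had 86.1, 40.5, 137 and 188 CPM (1.47, adjusted p = 0.0555). Lpl, lipoprotein lipase, had 948, 786, 265 and 481 CPM (-1.10, adjusted p = 0.0591), and Fcgrt, the neonatal Fc receptor, 223, 217, 58.8 and 114 CPM (-1.10, adjusted p = 0.0720). The secreted protein C1qtnf9 (-1.11), the antiproliferative gene Btg2 (-0.81) and Spry1, an inhibitor of receptor tyrosine kinase signalling (-1.21), had adjusted p-values of 0.0797, 0.10 and 0.101. These filled genes were taken only from genes whose libraries did not overlap between diets, which were 19.2% of all genes higher and 20.7% lower. The test did not call them. DESeq2 called Lpl (adjusted p = 0.0119) and Btg2 (0.0372) and gave the others no adjusted p. A block on the library number called them all except Btg2 (adjusted p = 0.0567, edgeR), but these numbers were not taken as pairs. With each library left out in turn, the log2 fold change ranged from 1.02 (without NC 2) to 2.20 (without NC 1) for Sele and from 1.02 to 2.09 for Adamts4, with the same libraries at each end. It ranged from -1.70 to -0.86 for Lpl, from -1.89 to -0.96 for Fcgrt and from -2.03 to -1.04 for Spry1, farthest from 0 without HFpEF 2 in each. Sele and Adamts4 were called without NC 1 or HFpEF 1, and not without NC 2 (adjusted p = 0.202 and 0.268, edgeR) or HFpEF 2 (0.315 and 0.365).

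Among 12 leukocyte adhesion genes, 2 had an unadjusted p under 0.05, both higher (5.23% over all genes), Sele and Vcam1 (664, 624, 1363 and 808 CPM, 0.69 ± 0.22, adjusted p = 0.303, edgeR). With 1 library left out, the log2 fold change of Vcam1 ranged from 0.32 to 1.09. Icam1 had 1897, 1080, 1491 and 1715 CPM, and its libraries overlapped (0.12 ± 0.22). Of 10 chemokines and scavengers, 4 were higher at that level and 1, Cxcl10, was called (median log2 fold change 0.32). Cxcl1, a neutrophil attractant, had 423, 532, 843 and 971 CPM (0.94, adjusted p = 0.0600), and Cxcl9, a further CXCR3 ligand, 78.8, 52.7, 275 and 86.9 CPM (0.95, and from 0.40 without HFpEF 1 to 2.07 without HFpEF 2). All 8 cytokines tested had a positive fold change, as had 3529 of all 7262 genes, 4 at an unadjusted p under 0.05 and 1 called, Il6 (median 0.56).

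In the antigen presentation and interferon lists many genes were above the share of 5.23% seen over all genes, and none was called. Of 6 MHC class II genes, 5 had an unadjusted p under 0.05, with a median log2 fold change of 1.07 (0.69 in other ECs). H2-Aa, a class II chain, had 101, 62.1, 275 and 170 CPM (1.27, adjusted p = 0.0720, edgeR) and Cd74 309, 128, 883 and 439 CPM (1.47 ± 0.34, adjusted p = 0.10, and from 0.98 without NC 2 to 2.24 without NC 1). Of 28 interferon response genes, 11 were higher and 1, Socs1, lower (median 0.60, 0.35 in other ECs). Igtp, an interferon-inducible GTPase, had 96.3, 98.6, 216 and 198 CPM (1.04, adjusted p = 0.0624). Irf1, the interferon regulatory factor, did not follow, at 878, 830, 883 and 801 CPM (-0.04 ± 0.18), and of 16 MHC class I and antigen processing genes 6 were higher (median 0.27).

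Among heat shock genes, 9 of 12 were higher at an unadjusted p under 0.05 and 1, Hspd1, was called (median 0.60, against 5.23% higher over all genes). Their median was higher in the other ECs, at 0.84. Hspa1b, an inducible HSP70, had 2215, 1189, 2922 and 5590 CPM (1.34, adjusted p = 0.0555, edgeR). Its log2 fold change ranged from 0.79 to 1.85 with 1 library left out. Heat shock and immediate early genes also respond to tissue dissociation. Of 16 immediate early genes 1 was higher and 4 were lower (median -0.18, against 4.1% lower over all genes), and their median in the other ECs was 0.042. The part of cell handling in either list was not tested.

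Lower genes were found in the capillary and lipid lists, which share members. Of 17 capillary markers, 9 were lower at an unadjusted p under 0.05, 2 were called, Timp4 and Gpihbp1, and none was higher (median -0.49, -0.17 in other ECs, against a share of 4.1% lower over all genes). The libraries did not overlap for 11 of the 17, against 20.7% of all genes. Of 14 genes of fatty acid uptake, 6 were lower and 1 was called (median -0.50, 0.00 in other ECs). Fabp4, the fatty acid binding protein, had 17741, 23844, 13582 and 16028 CPM (-0.49, adjusted p = 0.415, edgeR), whereas Cd36, the fatty acid translocase, had 4416, 3456, 3736 and 4662 CPM (0.10). Of 31 thinned cells with B cell markers, 14 held a Fabp4 UMI and 7 a Cd36 UMI. A background share was not removed from these levels. Scarb1, which encodes SR-B1, had 74.4, 23, 88.3 and 34.5 CPM (-0.16 ± 0.49), so the spread within each diet exceeded the difference between diets, and the fitted sign was opposite to that of the mean levels (48.7 CPM in NC and 61.4 CPM in HFpEF).

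In the remaining lists the counts at an unadjusted p under 0.05 were read against 5.23% higher and 4.1% lower over all genes. Among 19 vein markers, 2 were higher (median 0.26), Nr2f2 not among them, and among 13 artery markers 3 were higher and 2 lower. NF-kB regulators had 2 of 14 higher (median 0.24, with 13 positive), coagulation genes 3 higher and 1 lower of 15, VEGF, Notch and BMP genes 4 higher and 2 lower of 22, and cytokine receptors 2 higher and 1 lower of 13. Vasomotor genes had 1 higher and 1 lower of 14, the higher one being Calcrl at 403, 423, 696 and 862 CPM (0.94, adjusted p = 0.0555, edgeR). Matrix genes had 3 higher of 22, junction genes 2 lower of 13 and Weibel-Palade genes 1 lower of 11. The 12 circadian clock genes and the 5 endocardial markers tested had none at that level in either direction, and no gene of the lists in this paragraph was called.

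**Figure D5:**
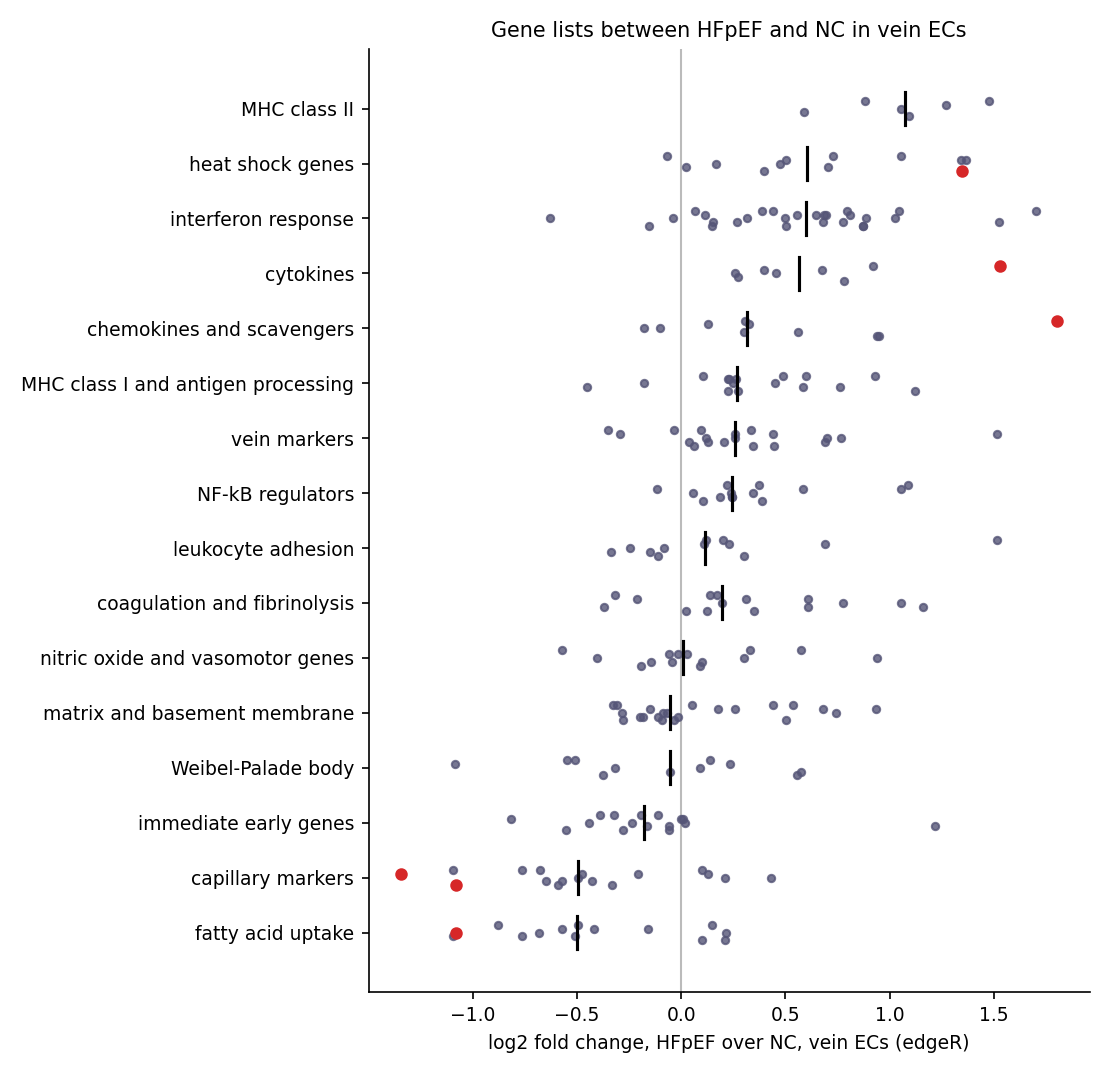
Log2 fold change of HFpEF against NC in vein ECs for each tested gene of the functional lists, 1 point per gene, with a line at each list's median and called genes in red. MHC class II genes (median 1.07) lie highest and the capillary markers (-0.49) and fatty acid genes (-0.50) lowest among the lists plotted.

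Whether the diet difference in vein ECs was not that of the other ECs was tested as an interaction with the library as a block, since both groups of cells came from the same libraries. Of 7262 genes outside the rule, 2 (0.0275%) were called, Ptgs2 and Gpihbp1, of which Ptgs2 passed the count filter only through HFpEF, and 380 had an unadjusted p under 0.05. Gpihbp1 fell further in vein ECs, from 1656 and 1472 to 637 and 809 CPM against 2487 and 2493 to 1749 and 1980 CPM in other ECs, an interaction of -0.68 ± 0.12 (log2, adjusted p = 0.0429, edgeR). Tiparp (0.95, adjusted p = 0.0861) and Lpl (-0.83, adjusted p = 0.0861) came next among the genes named. With other ECs matched on UMIs per cell, both were called (1.65, adjusted p = 0.00646, and -0.89, 0.0170, edgeR). With DESeq2 and with thinned cells neither was called. Without HFpEF 2 the interaction of Lpl was -1.66. The calls of Ptgs2 and Gpihbp1 were both lost with DESeq2 (adjusted p = 0.0514 for Ptgs2 and 0.411 for Gpihbp1), with thinned cells (1.00 and 0.980), without Vwf in the rule (0.201 and 1.00) and against other ECs without vein or artery UMIs (0.146 and 0.134). The interaction of Gpihbp1 was -0.68 with DESeq2, -0.61 with thinned cells, -0.32 without Vwf and -0.64 against those other ECs, so it was much smaller only without Vwf among these 4. Gpihbp1 alone lost its call with RLE factors (-0.67, adjusted p = 0.0670, edgeR), at 3 vein UMIs (-0.49, 0.104) and at 6 vein UMIs (-0.79, 0.147). It also lost its call without NC 1 (-0.61) and without HFpEF 2 (-0.84). For Timp4, Cxcl10, Il6, Hif1a, Hspd1 and Ptp4a3 a difference between vein ECs and other ECs was not called.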

How the data were processed

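The authors processed reads with fastp and Cell Ranger 5.0.1 on mm10 and deposited a matrix of UMI counts per gene and cell for each of 4 libraries, not divided by library size, with low-quality cells still included. The study's filter on genes and mitochondrial UMIs was applied again, together with a hemoglobin filter, and counts were summed per library over vein ECs and over other ECs. The members and the gene lists were chosen with earlier results of these data known.

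Diet was tested with edgeR 4.0.16 (quasi-likelihood F-test, filterByExpr, TMM factors) in R 4.3.3, with Benjamini-Hochberg adjustment over all genes tested, and the interaction of class and diet had the library as a block. Genes of the rule were described with no test, except Selp, which was tested in cells chosen without it. Ratios of vein ECs to other ECs used CPM plus 5 within each library. The cells were processed in Python 3.11.15, with pandas 2.3.3, numpy 2.4.6, scipy 1.17.1 and matplotlib 3.10.9, and doublets were left in unless stated. Where doublets were left out, the cells with the highest Scrublet scores (scanpy 1.11.5) were taken, at 0.8% of cells per 1000 cells of a library.

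The genes named were those of the rule, the 15 highest and 10 lowest ratios with the same sign in 4 of 4 libraries and at least 20 CPM on the higher side, all genes called between diets, filled to 8 per direction where the libraries did not overlap and the mean was at least 10 CPM, genes called in the interaction, and examples of each list. Alternatives were DESeq2 1.42.0, RLE factors, no count filter, thresholds of 3 and 6 vein UMIs, the rule without Vwf, cells under 1500 UMIs left out and the rest thinned to 1500 before the rule, no doublets, other comparison cells, a prior of 1 CPM, a replicate block and each library left out. The rule without Selp, Prss23 or Slco2a1 and the comparison with artery-marker and Npr3 ECs, and the share without cells under 1500 UMIs, were added after the data were seen. The tests were tried on simulated counts first. Positions are from GENCODE for GRCm38. The symbols Cd99 and Cxcl11 were not matched. Genotypes were not compared, as the labels assign none to a library.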

Additional observations from a re-analysis of the deposited data

Results flagged for a closer look

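Ptgs2 was called in the interaction of diet with vein ECs against other ECs, but it passed the count filter only through HFpEF, 1 cell held 35 of the 36 UMIs of HFpEF 1, and the call was lost with DESeq2, with thinned cells, without Vwf in the rule and against other ECs without vein or artery UMIs, so the p of this test was not used as support. At full depth its 73 UMIs in vein ECs all lay in the HFpEF libraries, in 10 cells, and the vein ECs of NC held 0. Npr3 cells of all 4 libraries held the gene. Gpihbp1 was the other gene called, and lost its call under the same settings and others, with an interaction of -0.68 on the log2 scale. No technical or biological explanation was tested for either. No group held 4 or more libraries, so no library was compared with the rest of its own group.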

How the results depend on the processing

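The count of 9 genes called between diets depended on the setting. It was 6 with DESeq2, with 2 of the 9 genes among them, 7 of 1317 genes tested with thinned cells (1 of the 9), 10 without Slco2a1 in the rule (7), 11 without doublets (8), 14 with RLE factors, 79 with no count filter, 37 and 2 with thresholds of 3 and 6 vein UMIs, 3 without Vwf, 35 without Prss23 and 26 without Selp in the rule, and 21 to 126 when 1 library was left out (57 without NC 1, 21 without NC 2, 126 without HFpEF 1, 50 without HFpEF 2). The replicate block gave 64 calls, with Sele, Lpl, Cd74 and H2-Aa among them. The library numbers were not taken as pairs, as the labels name no shared mouse or day. With only 2 pairs, a correlation of deviations of 0.0011 over 7285 genes cannot settle it. Scarb1 was higher in library 1 than in library 2 of both diets (74.4 and 23 CPM in NC, 88.3 and 34.5 CPM in HFpEF). Whether the library numbers follow genotype was not tested. With DESeq2, Timp4 and Gpihbp1 kept their calls, Cxcl10 had an adjusted p of 0.0570 and the other 6 genes had none. Without Vwf in the rule, Tiparp, Cxcl10 and Hif1a were still called, and at 6 vein UMIs Cxcl10 and Gpihbp1. All 9 genes were called with RLE factors, with no count filter, at 3 vein UMIs, and without Prss23 or without Selp in the rule.

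The 2 interaction calls became 0 with DESeq2 (91 at an unadjusted p under 0.05), without Vwf (270), with thinned cells (60) and against other ECs without vein or artery UMIs (377), 1 with RLE factors, 3 without doublets, 29 with no filter, 7 and 1 at 3 and 6 vein UMIs, 10 with other ECs matched on UMIs, and 13 to 33 with 1 library left out. The difference in share was -0.159 points with thinned cells, -0.648 with cells under 1500 UMIs left out and -0.555 without Vwf, and -1.27 to -0.780 with 1 library left out. The 191 genes at least 2-fold higher in vein ECs became 101 against Npr3 ECs and stayed at 154 to 219 otherwise. Of the named genes' ratios under these settings, 210 counted as the same, 59 moved in size and 6 reversed. A prior of 1 CPM moved 13 of them. Ccl21a reversed to 0.086 with matched cells, 0.050 against artery-marker ECs and 0.086 against Npr3 ECs, and Vcam1 (-0.26), Cpe (-1.37) and Bgn (-1.01) reversed against Npr3 ECs. The causes were not tested. Of the single genes' diet values, 1263 were unchanged in direction and side of the threshold, 172 gained a call, 34 lost one and 51 changed sign with no call on either side. Having 2 libraries per diet and 34 vein ECs in HFpEF 1 limits every diet value.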
